A study of Mus musculus with 47 samples.

Results

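The cytosolic ribosomal protein genes encode the proteins that join ribosomal RNA in the large and small subunits of the ribosome outside mitochondria. They were taken as protein-coding genes whose symbol is Rpsa, Rplp0, Rplp1 or Rplp2 or begins with Rpl or Rps and a digit, without the S6 kinases, and with values of 0.5 RPKM or more in 12 or more of the libraries. RPKM scales the reads of a gene by its exon length in kilobases and by the library's total in M (mega) reads. Levels of different genes are thus compared per length of annotated exons. The symbols of 92 protein-coding genes fit, 6 of them lay below the minimum (Rpl3l, Rpl9-ps1, Rpl10l, Rpl36al, Rpl36-ps4 and Rpl39l), and 86 of the 15321 genes tested were members. The members comprised 46 large subunit genes, 31 small subunit genes, 5 copies annotated as coding (Rps27rt, Rpl9-ps6, Rpl10-ps3, Rps12-ps3 and Rpl36a-ps1), the paralogs Rpl22l1 and Rps27l, and 2 genes whose symbols begin alike but that encode other proteins, Rps19bp1 and Rpl7l1. Rpl24 was the member nearest the minimum, which it reached in 21 libraries, and 84 members reached it in all 47.

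Retinas came from C57BL/6 mice, an inbred laboratory strain, aged 20 months (aged) or 6 weeks (young), housed with 12 h of light and 12 h of darkness. The right eyes were used, the retinas were dissected in dim red light, and polyadenylated RNA was sequenced. Sampling at ZT2, ZT6, ZT10, ZT14, ZT18 and ZT22, in hours after lights on, drew on 4 mice of each age per time according to the labels. The values used here cover 23 aged and 24 young libraries, with 3 at aged ZT18 and 4 in each other group, and the comparisons asked how transcripts differed with age and cycled over the day. Depth ran from 32.5 to 46.5 M reads in aged libraries and from 32.0 to 55.5 M in young libraries.

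The ribosome translates messenger RNA: the small subunit binds the message and decodes it, and the large subunit joins amino acids and holds the exit tunnel for the new chain. Ribosomal protein genes are expressed in all cells, and in vertebrates their transcripts usually begin with a C followed by a run of pyrimidines (the TOP motif), through which mTORC1 and the RNA-binding protein LARP1 regulate their translation. In the retina, photoreceptors renew their outer segments every day, which takes steady protein synthesis. In bulk tissue, fewer cells of a type and less RNA per cell cannot be told apart.

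Among the 47 libraries, 2 stood apart in the members and are described before the comparisons. In young ZT10 replicate 4, 85 of 86 members were above the mean of the other 3 libraries of the group and 83 were above all 3, with a median ratio of 2.47. Rplp2, of the stalk that recruits elongation factors, was at 184 RPKM in that library against a mean of 43.0 RPKM in the other 3. Rps15 was at 1817 RPKM against 458 RPKM, and Rps2 at 639 RPKM against 157 RPKM. Rpl24 was the exception, at 0.490 RPKM against 0.745 RPKM. Over all genes tested the median difference of this library from the other 3 was −0.36 on the log2 scale, over 264 other protein-coding genes with under 1000 exon bases it was 0.63, over 78 mitochondrial ribosomal protein genes 0.64, and over 37 complex I subunit genes 0.96. Its summed markers of Müller glia were at 97.8 RPKM and of ganglion cells at 65.6 RPKM, where the 45 libraries outside this pair held 692 to 1257 RPKM and 222 to 857 RPKM. Its markers of bipolar cells, amacrine and horizontal cells, astrocytes, microglia, and endothelium and pericytes also lay below the ranges of those libraries. Rod markers lay above theirs, at 36979 RPKM against 17247 to 30846 RPKM, and cone markers, at 698 RPKM, lay within theirs.

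In aged ZT6 replicate 3 the members scattered both ways, with 57 below and 29 above the mean of the other 3 libraries and a median log2 difference of −0.28. Rps10 was at 0.0204 RPKM in it against 1.58 RPKM in the other 3, Rpl28 at 24.7 RPKM against 82.2 RPKM, and Rpl8 at 129 RPKM against 299 RPKM. Rps27rt, a retrogene copy of Rps27, was at 180 RPKM against 57.5 RPKM, and Rpl26 at 326 RPKM against 177 RPKM. The SD of the members' deviations within this library was 0.64 on the log2 scale, against 0.398 in young ZT10 replicate 4 and at most 0.168 in any of the 45 others. Over all genes tested the median difference of this library from the other 3 was −0.25, near that of the members. Short genes had a median difference of −0.93, mitochondrial ribosomal protein genes −0.74 and complex I genes −0.70. Müller glia markers, at 597 RPKM, and microglial markers, at 16.3 RPKM, lay below the ranges of the 45 others in this library. Rod markers, at 22283 RPKM, and ganglion cell markers, at 362 RPKM, lay within theirs. The labels give no batch for either library that stood apart, so what sets them apart was not tested. The counts of members called below are given with and without them.

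**Figure D1:**
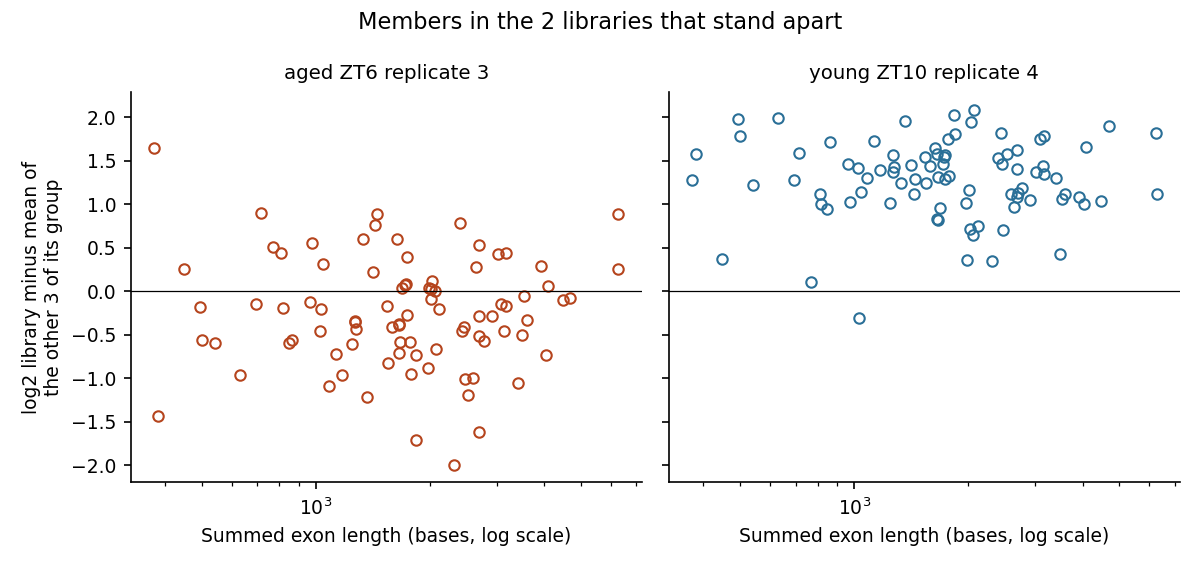
Difference of each member in aged ZT6 replicate 3 and in young ZT10 replicate 4 from the mean of the other 3 libraries of its group (y axis, log2) against its summed exon length (x axis, bases, log scale). Each circle is 1 of 86 genes; in the young library 85 circles lie above 0, and in the aged library 29 lie above 0 and 57 below.

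The ribosomal protein genes were among the abundant transcripts of the retina. The median level of the 77 large and small subunit genes was 91.3 RPKM (interquartile range 50.2 to 162), against 4.41 RPKM over all genes tested. Small subunit genes had a median of 117 RPKM and large subunit genes of 83.6 RPKM. Of the 77, 37 were above 100 RPKM, 37 between 20 and 100 RPKM, and 3 below 20 RPKM. For 85 of the 86 members the length used sums all annotated exon bases, which can exceed the length of a single transcript. The summed exon length was 499 bases for Rplp1, 630 for Rps15, 6256 for Rps24 and 6270 for Rps15a. Levels and ranks between genes therefore also depend on the annotation.

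The member with the highest level was Rplp1, an acidic protein of the P stalk, with a mean of 913 RPKM over the 47 libraries and the 23rd highest level of all genes tested. Rps15, a small subunit protein near the decoding site, followed at 509 RPKM. Rpl8, Rps3a1, Rpl4 and Rps6 came next at 317, 294, 293 and 273 RPKM. The other stalk genes were lower, Rplp0, the scaffold of the stalk, at 162 RPKM and Rplp2, the second acidic protein, at 52.9 RPKM. These levels are RNA per summed exon length, which is 499 bases for Rplp1, 1659 for Rplp0 and 2072 for Rplp2. The assembled stalk holds more of the acidic proteins than of the scaffold, but protein amounts were not measured here.

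At the low end were Rpl24 at 0.543 RPKM, Rps10 at 1.19 RPKM, Rpl36a-ps1 at 2.02 RPKM, Rpl10-ps3 at 3.87 RPKM, Rpl13a at 6.04 RPKM and Rpl22l1 at 11.1 RPKM. The large subunit proteins Rpl24 and Rpl13a and the small subunit protein Rps10 are parts of every ribosome, so their values are described with what could lower a count. Of their exon bases, 47% of Rpl24, 35.4% of Rpl13a and 20.6% of Rps10 lie in another gene on the same strand. The median reads per library were 20, 477 and 94. The 4 other genes named as copies of Rps10 together held a median of 1799 reads. How the authors assigned reads shared with overlapping genes or copies is not given in the sources used here, so the low levels of these 3 genes are uncertain, and the part of overlap and copies in them was not tested.

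Copies elsewhere in the genome concern many members. The file held 298 genes named as copies or pseudogenes of 60 members, and 80 of these copies passed the minimum. Rps12-ps3 was at 87.1 RPKM against 40.2 RPKM for Rps12, Rps27rt at 52.8 RPKM against 78.9 RPKM for Rps27, and Rpl9-ps6 at 45.4 RPKM against 117 RPKM for Rpl9. Reads of such pairs cannot be told apart with certainty, so the split between a gene and its copy is uncertain. Among paralogs with their own sequence, Rpl22l1 was at 11.1 RPKM against 59.2 RPKM for Rpl22, which encodes an RNA-binding protein of the large subunit. Rps27l was at 14 RPKM against 78.9 RPKM for Rps27, and Rpl7l1, a nucleolar protein of large subunit assembly, at 11.7 RPKM against 158 RPKM for Rpl7. Rps4x was at 217 RPKM and Rpl36a at 28.7 RPKM. The paralogs known from testis and muscle, Rpl10l, Rpl39l and Rpl3l, were below the minimum.

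RefSeq start sites (mouse build GRCm38.p6) were matched for 62 members, which gave 73 windows among the 32851 of the table. A C at the annotated start followed by at least 4 letters C or T stood in 14 of 73 member windows (19.2%), against 2.51% of all windows. A run of this kind began within 20 bases of the start in 54 (74%), against 49.4% of all windows. Whether transcripts begin at these runs was not tested. CTTTC began within 20 bases of the start in 19 (26%), against 6.09%. The last motif, CCGGAAG, searched on both strands of the whole window from 250 bases before to 50 after the start, stood in 26 (35.6%), against 8.86%. These matches describe letters, not binding.

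The starts of 8 members named below are shown as examples of such a run, as 30 bases before and 20 after the annotated start. They were chosen for a run at or near the start, which most member windows lack at the start itself, and no result below depends on them. Capitals mark the run of C and T counted from the annotated start on or, in Rpl22l1, from the nearest C after it. Rpl14, Rpl28, Rps6, Rps27 and Rps27rt belong to the age comparison, and Rpl35, Rps10 and Rpl22l1 to the rhythms.
Rpl14, chr9:120571487-120571536, plus strand: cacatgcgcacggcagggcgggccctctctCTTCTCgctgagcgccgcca
Rpl28, chr7:4792935-4792984, plus strand: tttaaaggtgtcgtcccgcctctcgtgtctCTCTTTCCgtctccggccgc
Rps6, chr4:86857348-86857397, minus strand: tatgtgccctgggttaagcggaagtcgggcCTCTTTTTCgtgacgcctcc
Rps27, chr3:90213629-90213678, minus strand: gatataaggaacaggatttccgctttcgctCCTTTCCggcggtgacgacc
Rps27rt, chr9:114982720-114982769, minus strand: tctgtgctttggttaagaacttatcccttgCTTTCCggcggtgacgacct
Rpl35, chr2:39005112-39005161, minus strand: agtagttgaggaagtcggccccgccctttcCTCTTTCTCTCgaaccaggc
Rps10, chr17:27635225-27635274, minus strand: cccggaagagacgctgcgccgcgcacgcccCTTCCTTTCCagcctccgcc
Rpl22l1, chr3:28805478-28805527, plus strand: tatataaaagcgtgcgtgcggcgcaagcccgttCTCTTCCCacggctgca
The marked run begins at the annotated start in the first 7 and 3 bases further on in Rpl22l1. In 6 of the first 7, all but Rps27rt, a C or T also stands directly before the start, so the letters do not fix where the run of pyrimidines begins. The stretches of Rps27 and its retrogene Rps27rt share an unbroken run of 19 bases at the start of the transcript, while the bases before it differ.

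The members moved together from library to library. Over the 45 libraries outside the pair that stood apart, the log2 level of a member correlated with the mean of the other members at a median r of 0.88, with 66 members over 0.8 and 33 over 0.9. Over all 47 the median was 0.89. The libraries are the same for all members and share depth and scaling, so these values are a description. Rpl30, Rps18, Rps25 and Rplp1 followed the mean most closely, at 0.97, 0.97, 0.96 and 0.96. Rps10 and Rpl24 did so least, at 0.06 each, then Rpl10-ps3 at 0.36, and all 3 belong to the members with the fewest reads. Rpl4 and Rps15a varied least, with SDs of 0.12 and 0.13 on the log2 scale, and Rpl36a-ps1 varied most, at 0.41.

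The mean log2(RPKM + 0.5) of the 86 members gives 1 level per library. In aged libraries it ran from 5.79 through a median of 6.20 to 6.49, and in young libraries from 5.67 through 6.09 to 7.35. The aged range lay within the young range, whose highest value belonged to ZT10 replicate 4. Without the pair, the level averaged 6.16 ± 0.17 in aged libraries (SD, n = 22) and 6.07 ± 0.13 in young libraries (SD, n = 23). In these libraries the members took 1.66 ± 0.20% of all reads in aged retinas (SD, n = 22) and 1.55 ± 0.13% in young retinas (SD, n = 23).

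**Figure D2:**
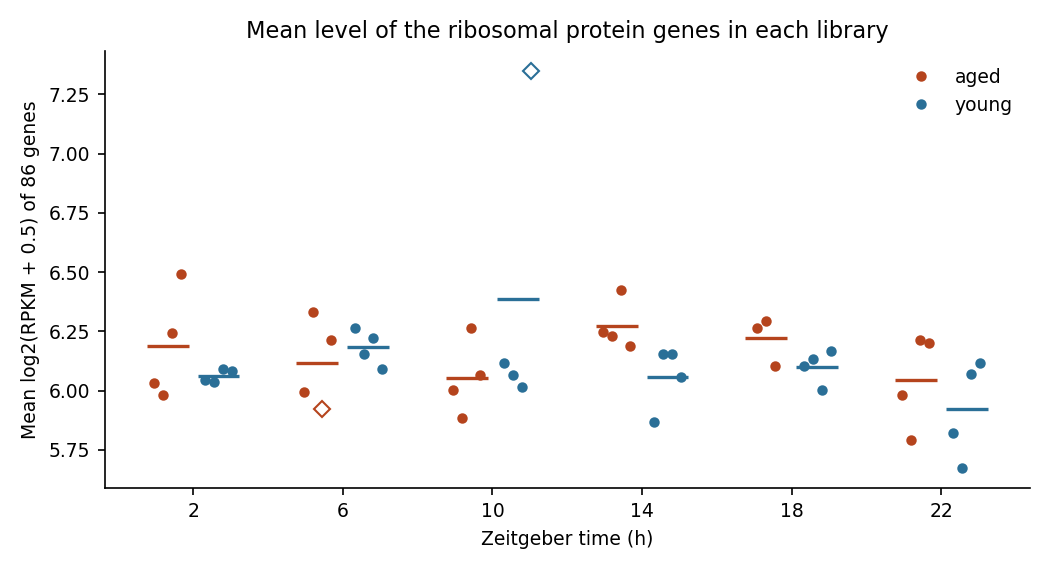
Mean log2(RPKM + 0.5) of the 86 members (y axis) in each library by zeitgeber time (x axis, h), aged left of young at each time. Points are libraries, horizontal lines are group means and open diamonds mark the 2 libraries that stood apart; young ZT10 replicate 4 lies at 7.35, and at ZT14 the 4 aged points lie above the 4 young points.

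With all 47 libraries, no ribosomal protein gene was called for age. In limma, with time as a factor and Benjamini-Hochberg adjustment over all genes, 0 of 86 members had an adjusted p under 0.05, against 4.24% of all genes tested (2.41% higher and 1.83% lower in aged). At an unadjusted p under 0.05 there were 3 members, all higher in aged (7.06% of all genes), and limma voom on recovered reads called 0. The members' log2 differences, aged minus young, ran from −0.17 for Rps10 to 0.31 for Rps27rt with a median of 0.03, against −0.02 over all genes. They were above 0 for 58 of 86 members, against 41.6% of all genes.

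The smallest p-values belonged to Rps27rt and Rps27, the retrogene and its parent for a zinc finger protein of the small subunit. Rps27rt was at 34.3, 54.2 and 180 RPKM (lowest, median and highest) in aged libraries, against 23.8, 44.9 and 115 RPKM in young libraries. Its log2 difference was 0.31 ± 0.11 (SE), with a limma adjusted p of 0.133. Rps27 was at 59.6, 83.7 and 104 RPKM in aged libraries, against 49.4, 71.6 and 158 RPKM in young libraries (0.14 ± 0.07, adjusted p = 0.295). For both genes the ranges overlapped. Rpl17, a large subunit protein near the tunnel exit, was at 110, 148 and 220 RPKM in aged libraries, against 97, 130 and 294 RPKM in young libraries (0.15 ± 0.07, adjusted p = 0.315). Rpl39, a small protein of the exit tunnel, and Rpl3, which reaches toward the peptidyl transferase centre, came next with log2 differences of 0.15 (adjusted p = 0.350) and 0.13 (adjusted p = 0.374).

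Without aged ZT6 replicate 3 and young ZT10 replicate 4, 22 of 86 members (25.6%) were higher in aged retinas and 0 were lower, by small amounts. Over all genes 16.5% were called in this fit, 7.24% higher and 9.29% lower in aged. The median log2 difference of the members was 0.11, against −0.03 over all genes, 80 of 86 were above 0 (40.2% of all genes), and 0 passed a fold of 1.5 (0.548%). The members' median was 0.06 with quantile normalization and 0.07 with library weights on the same libraries. The removal was chosen from earlier results of these data, and the calls rest on it. Without young ZT10 replicate 4 alone the count was 10 of 86, against 9.91% of all genes called in that fit. On these 45 libraries the count was 18 with median-ratio scaling, 16 with quantile normalization and 23 with limma voom. Leaving out 1 further library gave 17 (without aged ZT2 replicate 4) to 35 (without aged ZT6 replicate 1). In every case 0 members were lower. The shares of all genes higher in aged in these fits were, in the same order, 8.33%, 8.55%, 7.18%, 6.55% and 7.77%.

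Of the large subunit genes, 9 of 46 were higher in aged retinas of the 45 libraries. Rpl3 averaged 203 ± 23 RPKM in aged libraries (SD, n = 22) and 182 ± 16.2 RPKM in young libraries (SD, n = 23). Its log2 difference was 0.17 ± 0.04 (SE), with a limma adjusted p of 0.0022. Rpl17 averaged 144 ± 18.3 RPKM in aged and 127 ± 11.2 RPKM in young libraries (0.18, adjusted p = 0.00377). Rpl14, on the surface of the large subunit, averaged 135 ± 15 RPKM in aged and 122 ± 9.73 RPKM in young libraries (0.15, adjusted p = 0.00456). Rpl28, Rpl39, Rpl32 and Rpl9 also passed. In all of these the ranges of the 2 ages overlapped.

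The P stalk divided: Rplp0 and Rplp2 passed and Rplp1 did not, and the difference between them was not tested. Rplp0 averaged 167 ± 16.6 RPKM in aged and 151 ± 12.7 RPKM in young libraries (0.14, adjusted p = 0.0039), and Rplp2 averaged 52.8 ± 7.17 RPKM in aged and 48.2 ± 5.77 RPKM in young libraries (0.14, adjusted p = 0.0446). Rplp1 averaged 895 ± 120 RPKM in aged and 851 ± 89.0 RPKM in young libraries (0.08, adjusted p = 0.302). Rpl5 and Rpl11, which enter the large subunit with the smallest ribosomal RNA and, when free, bind Mdm2, had log2 differences of 0.07 (adjusted p = 0.289) and 0.08 (adjusted p = 0.290).

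Of the small subunit genes, 10 of 31 were higher in aged retinas of the 45 libraries. Among the 6 proteins that line the entry and exit of the message (Rps2, Rps3, Rps3a1, Rps9, Rps26 and Rps28), 2 passed. Rps2 averaged 192 ± 27.3 RPKM in aged and 169 ± 17.7 RPKM in young libraries (0.19, adjusted p = 0.00654), and Rps9 averaged 91.7 ± 10.8 RPKM in aged and 82.8 ± 7.89 RPKM in young libraries (0.15, adjusted p = 0.00654). Rps3, another entry site protein, had a difference of 0.05 (adjusted p = 0.535). Rps6, the substrate of the S6 kinases, averaged 280 ± 35.9 RPKM in aged and 252 ± 25.4 RPKM in young libraries (0.15, adjusted p = 0.0202). Rps27 had a difference of 0.19 (adjusted p = 0.00716), and Rps19, Rps13, Rps24 and Rps25 were among the others that passed.

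Of the 9 other members 3 passed. Rps19bp1, which encodes a binding partner of Rps19 known from human cells, had the smallest p of all members. Over all 47 libraries it was at 9.51, 20.2 and 24.7 RPKM (lowest, median and highest) in aged libraries, against 13.7, 18.1 and 42.5 RPKM in young libraries. The lowest aged value and the highest young value came from the 2 libraries that stood apart, and without them it averaged 20.5 ± 2.03 RPKM in aged and 18.1 ± 1.52 RPKM in young libraries (0.18 ± 0.04 SE, limma adjusted p = 0.000451). With all libraries the same gene had a difference of 0.08 and an adjusted p of 0.707. Rps27rt averaged 53.6 ± 10.8 RPKM in aged and 43.7 ± 7.62 RPKM in young libraries (0.30 ± 0.07 SE, adjusted p = 0.00297). The third was Rpl9-ps6, at a difference of 0.21 (adjusted p = 0.0208), and its parent Rpl9 passed as well at 0.15 (adjusted p = 0.0399).

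**Figure D3:**
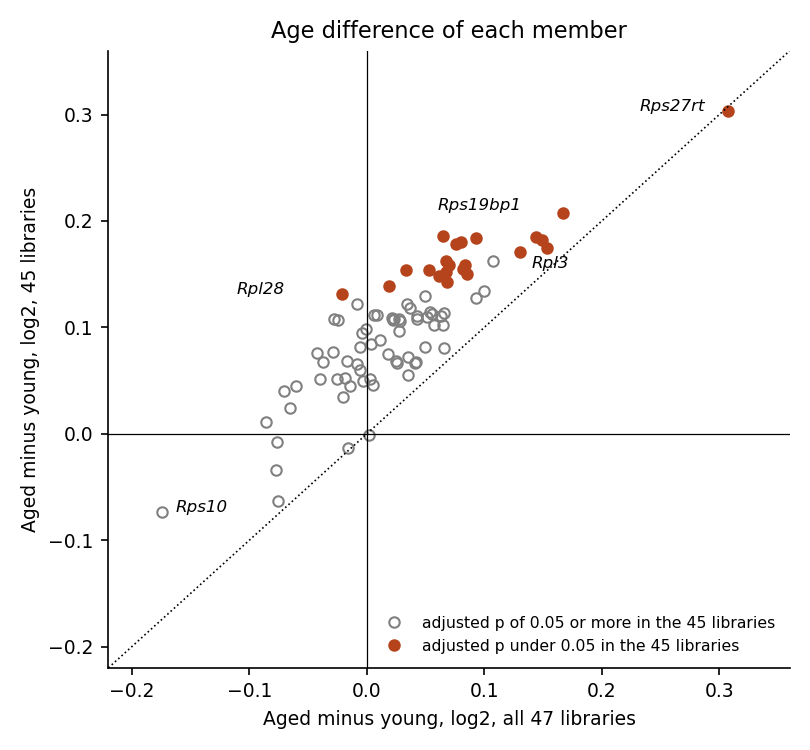
Log2 difference, aged minus young, of each of the 86 members with all 47 libraries (x axis) and with the 45 libraries that leave out the 2 that stood apart (y axis). Filled points are the 22 members with an adjusted p under 0.05 in the 45 libraries, all above 0, and the dotted line marks equal values; Rps27rt lies farthest right, at 0.31 and 0.30.

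Other measures moved with age in the same 45 libraries. Protein-coding genes outside the list with under 1000 exon bases had a median log2 difference of 0.08, with 17.4% of 264 higher in aged; those with 1000 to 2000 bases had 0.04 and 15%, those with 2000 to 4000 bases −0.004 and 9.84%, and those of 4000 bases or more −0.05 and 4.95%. The members fell into these classes as 16, 34, 30 and 6 genes, with medians of 0.11, 0.11, 0.09 and 0.08 and with 4, 10, 6 and 2 of them higher. Mitochondrial ribosomal protein genes were higher in 20 of 78 cases (25.6%) and complex I genes in 16 of 37 (43.2%), with 0 lower in either list. The part of gene length in the members' difference with age was not tested.

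Cell type markers gave the following values in the 45 libraries. Summed rod markers were at 17247 to 30846 RPKM in aged and 17915 to 24673 RPKM in young libraries, with 0 of 13 genes called but 13 of 13 differences above 0 (median 0.06 on the log2 scale). The sum of Müller glia markers was 692 to 1251 RPKM in aged and 755 to 1257 RPKM in young libraries, with 0 of 9 higher and 1 lower (median −0.11). Ganglion cell markers summed to 222 to 857 RPKM in aged and 329 to 742 RPKM in young libraries, with 0 of 9 called and 1 of 9 above 0 (median −0.17). Amacrine and horizontal cell markers summed to 40.0 to 118 RPKM in aged and 65.0 to 116 RPKM in young libraries, with 1 of 8 lower and 0 of 8 above 0 (median −0.18). Endothelial and pericyte markers summed to 6.95 to 24.2 RPKM in aged and 10.4 to 26.8 RPKM in young libraries, with 0 of 5 called and 0 of 5 above 0 (median −0.20). Microglial markers summed to 27.8 to 53.9 RPKM in aged and 23.9 to 37.1 RPKM in young libraries, with 4 of 8 higher in aged. Blood markers were at 12.2 to 823 RPKM in aged and 14.1 to 294 RPKM in young libraries with 4 of 5 higher, and pigment epithelium markers at 8.14 to 186 RPKM in aged and 6.72 to 101 RPKM in young libraries with 3 of 7 higher. Of 9 bipolar cell markers, summing to 120 to 248 RPKM in aged and 166 to 283 RPKM in young libraries, 4 were lower and 1 was higher in aged. Of 10 cone markers, at 534 to 881 RPKM in aged and 636 to 966 RPKM in young libraries, 1 was lower, and of 12 lens markers, at 3.01 to 1834 RPKM in aged and 0.940 to 2600 RPKM in young libraries, 3 were lower. Astrocyte markers were at 10.3 to 28.5 RPKM in aged and 11.8 to 22.6 RPKM in young libraries, with 0 of 3 called. The astrocyte gene Pax2 was near 0, at 0.187 RPKM, and so was the lens gene Lim2, at 0.00576 RPKM, although other lens genes were present. The part of these tissues in the members' difference was not tested.

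Taken time by time, 0 of 86 members were called at any of the 6 times, with all libraries and without the pair. limma called 0.144% of all genes at ZT2, 3.12% at ZT6 and 0.496% at ZT10 in the light, and 0.248%, 0.255% and 0.17% at ZT14, ZT18 and ZT22 in the dark. Without the pair these shares were 0.751%, 1.38% and 0.587% in the light and 0.914%, 0.822% and 0.757% in the dark. At an unadjusted p under 0.05, with all libraries, 4 members were found at ZT6 (19.8% of all genes), 32 at ZT10 (12.6%) and 5 at ZT14 (5.46%), and 0 at ZT2 (4.47%), ZT18 (3.58%) and ZT22 (4.13%). Without the pair the largest of these counts was 31, at ZT14 (12.9%), followed by 11 at ZT22 (12.5%) and 8 at ZT2 (12.6%). There was then 1 member at ZT6 (11.8%) and at ZT10 (7.24%), and 0 at ZT18 (8.54%). limma voom with all libraries called 1 member at ZT6, lower in aged, and 0 elsewhere (shares of all genes not given here). With all libraries the median log2 differences of the members were 0.13, −0.07 and −0.34 at the 3 times in the light and 0.20, 0.12 and 0.13 at those in the dark. The 32 members at ZT10 were all lower in aged, and without the pair the median was −0.02 at ZT10 and −0.002 at ZT6.

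Of the 6 times, ZT14 was the one at which the member levels of the 2 ages did not overlap. The mean member level was 6.25, 6.23, 6.42 and 6.19 in the aged libraries, against 5.87, 6.16, 6.15 and 6.06 in the young libraries. All aged values lay above all young values, and 85 of 86 members had a difference above 0, against 50.7% of all genes. With all libraries 82, 81 and 80 members were above 0 at ZT2, ZT18 and ZT22 (shares of all genes not given here). Other gene sets did not overlap at ZT14 either. The median deviation of complex I genes (log2, from each gene's median) was 0.04 to 0.23 in aged and −0.19 to 0.006 in young libraries. That of mitochondrial ribosomal protein genes was 0.04 to 0.16 in aged and −0.13 to −0.02 in young. Short genes were at 0.07 to 0.23 and −0.13 to 0.008. Rps27rt was at 61.2, 53.2, 74.5 and 54.2 RPKM in the aged libraries at ZT14, against 33.6, 41.7, 46.6 and 37.5 RPKM in the young libraries. The groups did not overlap, and the log2 difference of 0.60 had an adjusted p of 0.787 with all libraries and of 0.0635 without the pair.

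At ZT6 the smallest p belonged to Rps10. It was at 1.62, 1.66, 0.0204 and 1.44 RPKM in aged libraries, against 1.81, 2.28, 2.08 and 1.91 RPKM in young libraries. All aged values were below all young values, also without the third aged library. The log2 difference was −0.78 ± 0.25 (SE, adjusted p = 0.0781) with all libraries and −0.28 ± 0.16 (SE, adjusted p = 0.553) without the pair. Rps27a, which is made as a fusion with ubiquitin, differed by −0.58 at ZT6 (adjusted p = 0.131) and by 0.50 at ZT14 (adjusted p = 0.799). At ZT2 and ZT18 the largest differences above 0, 0.36 for Rpl27 and 0.38 for Rpl10-ps3, had adjusted p-values of 0.985 and 1.00. The lowest difference of a member at ZT2 was −0.42, and it was not called either.

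Whether the age difference varied with time was tested directly. The age by time interaction called 0 members, and 0% of all genes, with limma and with limma voom. Rps27a was the 1 member with an unadjusted p under 0.05, a rule that 4.8% of all genes met, and its adjusted p in limma was 0.838. Without the pair 0 members were called as well, and the lowest adjusted p in limma was 0.787.

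Rhythms were fitted as a 24 h cosine on the log2 scale, whose amplitude is the distance from the fitted mean to the peak. In aged retinas 1 of 86 members was rhythmic (14.4% of all genes), and in young retinas 6 were (6.98% of the members, 19.7% of all genes). No member was rhythmic in both ages (7.56% of all genes). The test of a different rhythm between ages called 0 members (0.00653% of all genes) with limma and with limma voom, and 2 members, among them Rpl35, had an unadjusted p under 0.05 (7.75% of all genes) with adjusted p-values of 0.606. Without the pair it called 0 members, with a lowest adjusted p of 0.666. A rhythm called in 1 age and not in the other is therefore not shown to differ between them.

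**Figure D4:**
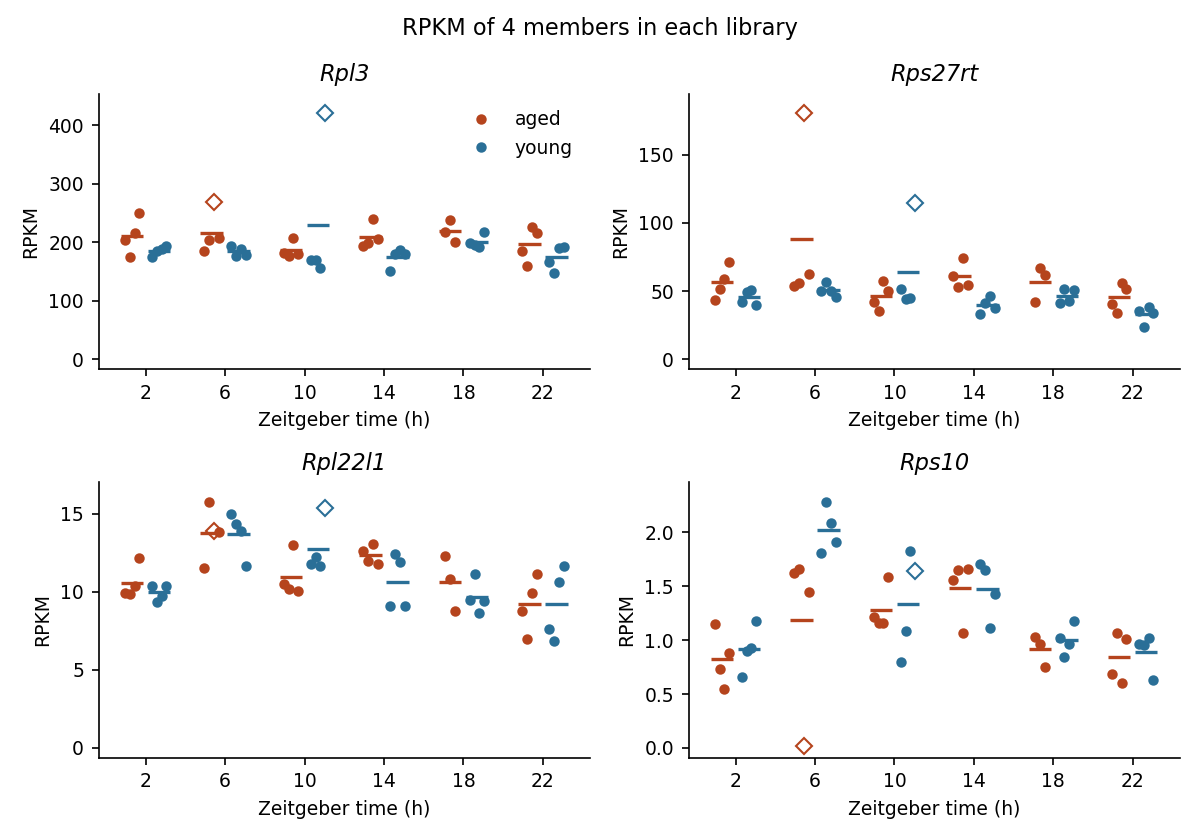
RPKM of Rpl3, Rps27rt, Rpl22l1 and Rps10 (y axes) in each library by zeitgeber time (x axes, h), aged left of young at each time. Points are libraries, lines are group means and open diamonds mark the 2 libraries that stood apart; Rps27rt reaches 180 RPKM in aged ZT6 replicate 3, and Rps10 lies at 0.0204 RPKM there.

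Rpl22l1 had the smallest p among the young rhythms. At ZT6 it was at 11.5, 15.8, 13.9 and 13.8 RPKM in aged libraries, against 15, 14.3, 13.9 and 11.7 RPKM in young libraries. At ZT22 it was at 8.80, 6.94, 9.91 and 11.1 RPKM in aged libraries, against 7.62, 6.84, 10.6 and 11.7 RPKM in young libraries. Within each age every ZT6 value lay above every ZT22 value, by a narrow margin in young retinas, and the 2 ages overlapped at both times. The amplitude was 0.19 with a peak at 9.07 h in aged retinas (limma adjusted p = 0.101) and 0.28 ± 0.06 (SE) with a peak at 8.32 h in young retinas (adjusted p = 0.00413). Without the pair the amplitudes were 0.18 in aged and 0.26 in young retinas (adjusted p = 0.0949 and 0.00425). Its paralog Rpl22 had amplitudes of 0.12 in aged and 0.22 in young retinas (adjusted p = 0.208 and 0.0489), peaking at 10.3 h and 8.59 h, and without the pair 0.13 in aged and 0.15 in young retinas (adjusted p = 0.116 and 0.00361).

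Rpl31 and Rpl35, both beside the exit of the tunnel, peaked in young retinas at 9.55 h and 9.23 h with amplitudes of 0.27 each (adjusted p = 0.0137 and 0.0181). Both values were higher with ZT10 replicate 4 than without it. Rpl31 was at 105, 102, 100.4 and 180 RPKM at young ZT10, and Rpl35 at 44.8, 40.0, 36.5 and 82.0 RPKM. The fourth library was the highest for both genes, and without the pair the young amplitudes were 0.21 and 0.20 (adjusted p = 0.0104 and 0.00712). In aged retinas Rpl31 and Rpl35 had amplitudes of 0.07 and 0.09 (adjusted p = 0.663 and 0.579).

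The low members Rps10 and Rpl24 had the widest cycles. Rps10 was at 0.689, 1.06, 0.598 and 1.01 RPKM at aged ZT22 and at 0.968, 0.952, 1.02 and 0.627 RPKM at young ZT22. These were below its ZT6 values, with the exception of the third aged library. Its young amplitude was 0.34 with a peak at 9.11 h (adjusted p = 0.0151). Its aged amplitude was 0.29 (adjusted p = 0.207), and 0.32 with a peak at 10.3 h without the pair (adjusted p = 0.00555). It was then the 1 member rhythmic in both ages (19.4% of all genes). Rpl24 had amplitudes of 0.23 in aged and 0.35 in young retinas (adjusted p = 0.169 and 0.016), and of 0.24 and 0.37 without the pair (adjusted p = 0.146 and 0.00633), on a median of 20 reads per library.

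Rpl13a, a large subunit protein that in human monocytes also acts outside the ribosome, was the member rhythmic in aged retinas. At ZT10 it was at 4.24, 4.38, 5.66 and 4.26 RPKM in aged libraries, against 5.79, 5.32, 4.41 and 8.99 RPKM in young libraries. At ZT18 it was at 7.83, 6.82 and 5.68 RPKM in aged libraries, against 7.04, 6.27, 6.57 and 6.29 RPKM in young libraries. In aged retinas every ZT18 value was above every ZT10 value. The amplitude was 0.21 ± 0.05 (SE) with a peak at 20.1 h in aged retinas (adjusted p = 0.0216) and 0.06 in young retinas (adjusted p = 0.741). Without the pair it was 0.20 in aged and 0.12 in young retinas (adjusted p = 0.0177 and 0.0958). With time as a factor in place of the cosine, limma called 0 of 86 members in aged retinas with all libraries, Rpl13a included. The share of all genes in that test is not given here.

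The median amplitude of the members was below that of all genes in aged retinas, and in young retinas only without the pair. The median amplitude was 0.08 in aged and 0.18 in young retinas, against 0.15 and 0.13 over all genes, and without the pair it was 0.07 in each age, against 0.14 and 0.12 over all genes. In young retinas 82 of 86 fitted peaks fell between 6 and 12 h, and 62 did so without the pair. In aged retinas 42 peaks fell between 12 and 18 h and 23 between 18 and 24 h. Peaks were counted for all 86 members, called rhythmic or not, and the shares of all genes are not given here. The members share the same libraries, so these counts are a description, and a common phase was not tested. Without the pair, 3 members were rhythmic in aged retinas (3.49%, against 27.3% of all genes), Rps10, Rpl13a and Rps27a, and 15 in young retinas (17.4%, against 34% of all genes). On the same 45 libraries the young count was 4 with median-ratio scaling, 2 of them among the 15, and 26 with quantile normalization, 12 of them among the 15. The shares of all genes in those fits are not given here, so these counts are not read as a result about the members.

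**Figure D5:**
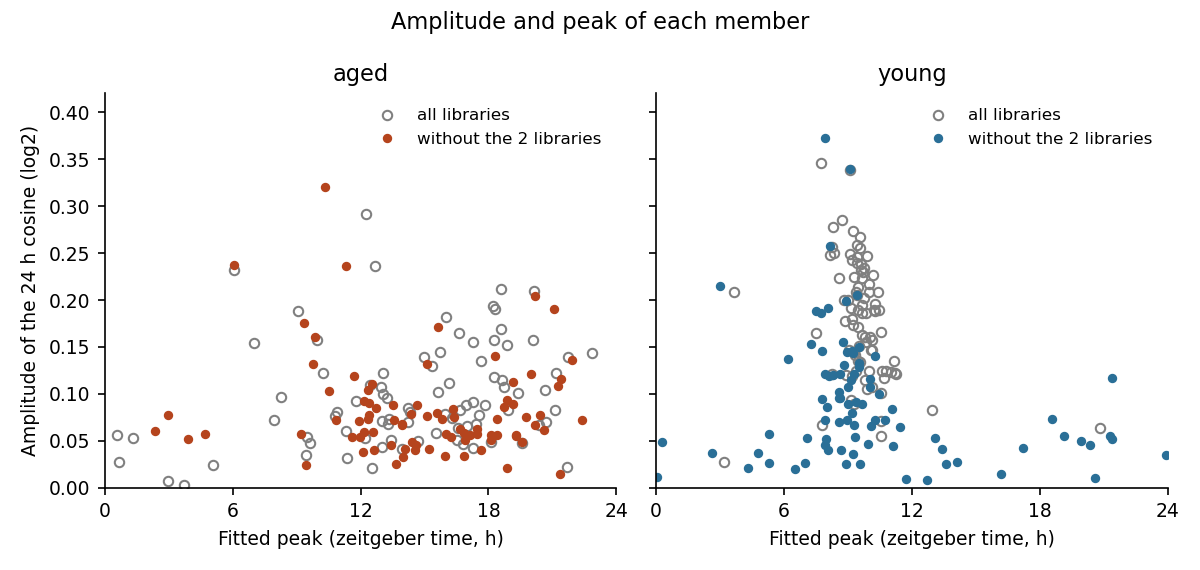
Amplitude of the fitted 24 h cosine (y axis, log2) against the fitted peak (x axis, zeitgeber time in h) for the 86 members in aged (left) and young (right) retinas. Open circles are fits to all libraries and filled points fits without the 2 that stood apart; the median amplitude in young retinas is 0.18 for the open circles and 0.07 for the filled points.

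Other genes of the translation machinery were taken from lists chosen along with the members. Fau and Rack1, subunits that the symbols do not cover, had log2 differences of 0.003 (limma adjusted p = 0.994) and 0.02 (adjusted p = 0.949) with all libraries, and Fau passed without the pair at 0.13 (adjusted p = 0.0475). Of 12 elongation and release factors 1 was higher in aged with all libraries and 4 without the pair, with 0 lower. The release factor Etf1 averaged 24.5 ± 2.10 RPKM in aged libraries (SD, n = 23) and 23 ± 1.40 RPKM in young libraries (SD, n = 24), a difference of 0.09 (adjusted p = 0.0233), and of 0.08 without the pair (adjusted p = 0.0126). Of 36 initiation factors 2 were higher with all libraries, Eif2s1, a subunit of the factor that brings the initiator tRNA, at 0.12 (adjusted p = 0.00957) and Eif1a at 0.14 (adjusted p = 0.0239). Without the pair 10 were higher and 1, the scaffold Eif4g1, was lower at −0.13 (adjusted p = 0.0311). Of 9 other genes with TOP transcripts 0 were called with all libraries, 1 had an unadjusted p under 0.05, and 4 were higher without the pair, among them Naca at 0.16 and Btf3 at 0.15, the nascent chain partners.

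Upstream of the ribosome, 1 of 43 assembly factors was higher in aged with all libraries and 4 without the pair. Nucleolin (Ncl) averaged 32.9 ± 2.44 RPKM in aged libraries (SD, n = 23) and 30.3 ± 1.97 RPKM in young libraries (SD, n = 24), a difference of 0.12 (adjusted p = 0.0125), and of 0.09 without the pair (adjusted p = 0.00214). Of the 43, 11 were rhythmic in aged and 12 in young retinas, against 14.4% and 19.7% of all genes. Without the pair 24 were rhythmic in aged and 23 in young retinas, against 27.3% and 34% of all genes. Ltv1, of the late small subunit precursor, had an amplitude of 0.24 with a peak at 8.02 h in aged retinas and of 0.25 with a peak at 7.38 h in young retinas. Of 23 genes of RNA polymerases I and III, which transcribe ribosomal RNA, 0 were called for age with all libraries (4 at an unadjusted p under 0.05), and 8 were rhythmic in aged and 13 in young retinas, and 14 and 16 without the pair, read against the same shares of all genes.

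Of 21 regulators in the mTORC1 and TOP list 1 was lower in aged and 0 were higher with all libraries, where 5 had an unadjusted p under 0.05, 1 of them higher and 4 lower in aged. Mycn, a transcription factor that drives ribosome synthesis, averaged 1.80 ± 0.43 RPKM in aged libraries (SD, n = 23) and 2.67 ± 0.61 RPKM in young libraries (SD, n = 24), a difference of −0.45 ± 0.09 (SE, adjusted p = 0.000879), and of −0.47 without the pair (adjusted p = 5.58e-07). Without the pair 7 were lower and 0 higher, among them Tsc2, which restrains mTORC1, at −0.12 (adjusted p = 0.002) and Rptor, the subunit of mTORC1 that binds its substrates, at −0.11 (adjusted p = 0.0187). Mxi1, an antagonist of Myc, cycled with an amplitude of 0.53 and a peak at 14.9 h in aged retinas and of 0.42 and a peak at 14.7 h in young retinas. Of 12 genes for the rescue of stalled ribosomes 2 were lower in aged, Gigyf2 at −0.10 (adjusted p = 0.0173) and Hbs1l at −0.13 (adjusted p = 0.0256), and without the pair the same genes were lower at −0.09 (adjusted p = 0.00975) and −0.11 (adjusted p = 0.000835).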

How the data were processed

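Retinal polyadenylated RNA of 23 aged and 24 young mice was measured. The authors deposited RPKM values per gene and library, without pooling. HISAT2 2.2.1, Subread 2.0.6, FastQC 0.23.4 and the build GRCm39 appear in the submitters' processing notes, and the annotation is not given in the sources used here. Per the labels' design text, the authors used edgeR, MetaCycle and CircaCompare. RPKM values are not counts, so limma 3.58.1 (R 4.3.3) was used here on log2(RPKM + 0.5), with trend and Benjamini-Hochberg adjustment over the 15321 genes that reached 0.5 RPKM in 12 or more libraries. Rhythms were tested with a 24 h cosinor. Fold changes on this scale understate those of low genes. Age was tested with time as a factor, at each time in a fit of 12 group means, and by interaction; calls need an adjusted p under 0.05.

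Symbols, biotypes and exon lengths came from GENCODE M21, of an earlier build, and matched 51933 of 57180 genes. Library totals and reads were recovered from the steps of low RPKM values; 99.992% of 37323 genes came out whole within 0.01. Replicates are separate mice per the labels and differed beyond sampling noise in all 69 pairs (mean chi-square per gene 7.62 to 767). There was 1 column that matched no sample and was not used.

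The members and lists were chosen with earlier results of these data known. Named were the 6 members highest and lowest in level, the stalk, the paralogs, up to 8 members by p for each comparison, the 4 most and least coherent, and up to 4 genes of each list. Scaling, pseudocount, filter, fold minimum, library weights, a replicate block and the rhythm test were varied, and libraries were left out in turn. limma voom on recovered reads and the removal of 2 libraries were among the alternatives; the removal was chosen from earlier results of these data. Further alternatives on the 45 remaining libraries were chosen after seeing the data. The fits were tested on simulated data. Protein sequences were not used here, and the values of a few genes are not reported here.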

Additional observations from a re-analysis of the deposited data

Results flagged for a closer look

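Of 165 checks for a single library far from its group (15 measures in 11 groups of 4 libraries), 22 passed Dixon's criterion at the 95% level, where chance gives about 1 in 20 groups. Young ZT10 replicate 4 accounted for 10 of them. It had a mean member level of 7.35 on the log2 scale and 4.10% of its reads in the members, and it was far above its group for Rps27rt at 115 RPKM, Rps27 at 158 RPKM, Rpl17 at 294 RPKM, Rpl39 at 87.7 RPKM, Rpl3 at 421 RPKM, Rpl22l1 at 15.3 RPKM, Rpl31 at 180 RPKM and Rpl22 at 128 RPKM. Aged ZT6 replicate 3 stood apart in depth, at 42.4 M reads, in Rps27rt at 180 RPKM and in Rps10 at 0.0204 RPKM.

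The remaining libraries stood apart in 1 or 2 measures. Aged ZT22 replicate 1 had 46.5 M reads. Rpl22l1 was at 13.0 RPKM in aged ZT10 replicate 3, where Rpl13a was also high at 5.66 RPKM, and Rpl13a was at 7.06 RPKM in aged ZT2 replicate 4. Rps10 was high at 1.59 RPKM in aged ZT10 replicate 4, low at 1.07 RPKM in aged ZT14 replicate 3 and low at 0.627 RPKM in young ZT22 replicate 4. Rpl31 was at 117 RPKM in young ZT14 replicate 2, and Rpl35 was low at 30.9 RPKM in young ZT18 replicate 3.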

How the results depend on the processing

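Without aged ZT6 replicate 3 and young ZT10 replicate 4, 22 members were higher in aged, 3 were rhythmic in aged and 15 in young, against 0, 1 and 6 with all libraries. On those 45 libraries the counts for age, rhythm in aged and rhythm in young were 18, 2 and 4 with median-ratio scaling, 16, 4 and 26 with quantile normalization, 18, 13 and 13 with library weights, and 23, 3 and 17 with limma voom. With the replicate number as a block they were 30, 3 and 14; with all libraries the block gave 0, 1 and 7. Pairing by number was checked only by correlation: 10 of 23 pairs had deviations correlated over 0.1 (range −0.49 to 0.43), and 7 libraries correlated best with their own number. No chance value is given here for these counts, and whether libraries of the same number shared a batch was not tested. With all libraries, library weights called 15 of 86 members for age, against 15.6% of all genes. These weights called 16 members rhythmic in aged and 12 in young, against 39.3% and 46.1% of all genes. At single times the weights called 18 members at ZT2, 2 at ZT14 and 28 at ZT18, and 2 for the interaction. The shares of all genes at single times and for the interaction are not given here, so those counts are not read as a result about the members. limma voom called 1 at ZT6. Rhythm in young gave 2 with median-ratio scaling (16.3% of all genes) and 21 with quantile normalization (16.9%). Time as a factor gave 0 in aged and 3 in young. The shares of all genes are not given here for time as a factor or for the voom call at ZT6. They are also not given for rhythm in the alternative fits of the 45 libraries. Those counts are likewise not read as a result about the members. Leaving out each library in turn, before or after removing the pair, gave 0 to 35 members for age (35 without aged ZT6 replicate 1, 10 without young ZT10 replicate 4 alone), 0 to 2 at ZT6 (2 without aged ZT6 replicate 4), 0 to 5 rhythmic in aged (0 without aged ZT22 replicate 4), 5 to 20 rhythmic in young (20 without the pair and young ZT14 replicate 1) and a median age difference of 0.01 to 0.12. Over all genes 17.1% were called for age in the fit with 35 members and 9.91% in the fit with 10. With 1 of the 47 libraries left out in turn, the call for Rpl22 in young held in 27 fits and that for Rpl13a in aged in 46. The young fits used only the 24 young libraries, so leaving out any of the 23 aged libraries could not change the call for Rpl22. Leaving out a young library likewise could not change the call for Rpl13a, so these fits are no support for either call. The causes were not tested. Without the pair the median difference of some lists changed sign: Müller glia markers −0.11 (0.05 with all libraries), ganglion cell markers −0.17 (0.01), RNA polymerases I and III 0.02 (−0.02) and genes under 1000 exon bases 0.08 (−0.01); 80 members were above 0, against 58. The pseudocounts, filters and variance moderation without trend left every count within 1.5 times. Depth limits Rpl24 (median 20 reads) and Rps10 (94 reads). At single times, with 3 or 4 mice a group, the precision is limited: the SD of the mean member level within groups was 0.24 on the log2 scale, and 0.14 without young ZT10 replicate 4.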
